A study of Mus musculus with 2 samples.

Results

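Trp63 (gene 22061) encodes p63, a transcription factor of the p53 family. In mouse (GRCm38.p6, RefSeq) it lies on chromosome 16 from 25683763 to 25892088, a span of 208.3 kb. A region belonged to the Trp63 locus if its midpoint lay inside that span, or within 100 kb of it and nearer to it than to any other protein-coding gene. Of the 109257 merged open regions, 44 met this rule. There were 8 before the gene, 30 inside it and 6 past it, and only 70 of 17392 protein-coding genes with a region had more by the same rule. The libraries were made by ATAC-seq, which marks open chromatin by where the transposase Tn5 can insert adapters, from basal cells of the back skin interfollicular epidermis of CD1 mice, an outbred stock. Both groups were sorted as ITGA6-positive, CD34-negative cells, 10000 per library. The control library came from 1 untreated mouse, and the stretched library from 1 mouse whose skin was expanded by mechanical force. The sources used here give no age, sex or duration of the force.

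Trp63 is needed for a stratified epidermis to form and for its basal layer to be maintained. Its first promoter gives TAp63 proteins, which carry a transactivation domain at the N-terminus. A second promoter inside the gene gives the ΔNp63 proteins, which lack that domain and are the main form in basal keratinocytes. Enhancers inside the gene and in its neighbourhood keep it on in these cells. Trp63 is taken here to be read toward higher coordinates, from general knowledge, since the gene table used gives no strand. The lower end of its span is therefore called the beginning of the gene, and "before" and "past" follow from that. Distances below are from that end to the midpoint of a region. The position of the internal promoter, and of exons and introns, was not used here, so no region is named as the ΔNp63 promoter.

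With 1 library per group there is no replicate check, and no p-value is given. All regions together held 8820178 control counts and 11803785 stretched counts, called library totals below. Without regions over 10000 counts in either library, the totals were 5776423 and 6027023. The authors' peak headers give 31944854 and 23876613 fragments, which differ in the other direction and were not used for scaling. A fold is stretched over control, after scaling by TMM factors that set the median region near no change, with an exact 95% interval that covers counting error only. A region was called higher or lower at a fold of at least 2 or at most 0.5, with at least 20 counts in both libraries together and an interval that excludes 1. All 6 basal keratinocyte marker genes checked (Krt5, Krt14, Trp63, Itga6, Itgb4 and Col17a1) had open regions, with 995 to 3391 summed counts per gene. Trp63 is the subject here, so that it had regions was already known. The summed fold of the 6 genes was 1.09, and single genes ranged from 0.898 (Col17a1) to 1.20 (Krt14). The marker genes of other cells also had regions, none at 0. There were 442 to 617 counts per suprabasal gene, 514 to 1551 per follicle gene and 15 to 2178 per melanocyte gene. Fibroblast genes had 37 to 661, endothelial genes 199 to 1551 and immune genes 48 to 299. Cd34, for whose protein the cells were sorted as negative, had 1551 counts. The summed fold was 0.861 for 4 suprabasal genes, 0.996 for 5 follicle genes, 1.02 for 5 melanocyte genes, 0.760 for 4 fibroblast genes, 0.890 for 3 endothelial genes and 0.906 for 4 immune genes. These sums cover genes that went opposite ways. Among suprabasal genes Krt10 and Krt1 stood at 0.577 and 0.629 and Lor and Ivl at 1.24 and 1.21, and immune genes ranged from 0.244 (Cd3g) to 1.55 (Ptprc). The part of other cells in the values below was not tested.

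Open regions covered the locus unevenly, and the annotated beginning of the gene held none. The nearest region before that end stopped 9233 bp short of it, and the first region inside the gene began 39383 bp beyond it, which left 48615 bp without a merged region in either library. Of 17492 other protein-coding genes whose strand is known from the promoter table used, 63.8% had a region within 1 kb of the annotated 5′ end. The same held for 23 of 25 genes linked to p63, the exceptions being Cdkn1a and Kmt2d. The first 52.1 kb of the gene held 2 of the 30 inside regions and the next segment of that length 8. The last 2 of these 4 equal segments held 10 each. The 44 regions were 209 to 1920 bp wide, with a median of 662 bp.

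**Figure D1:**
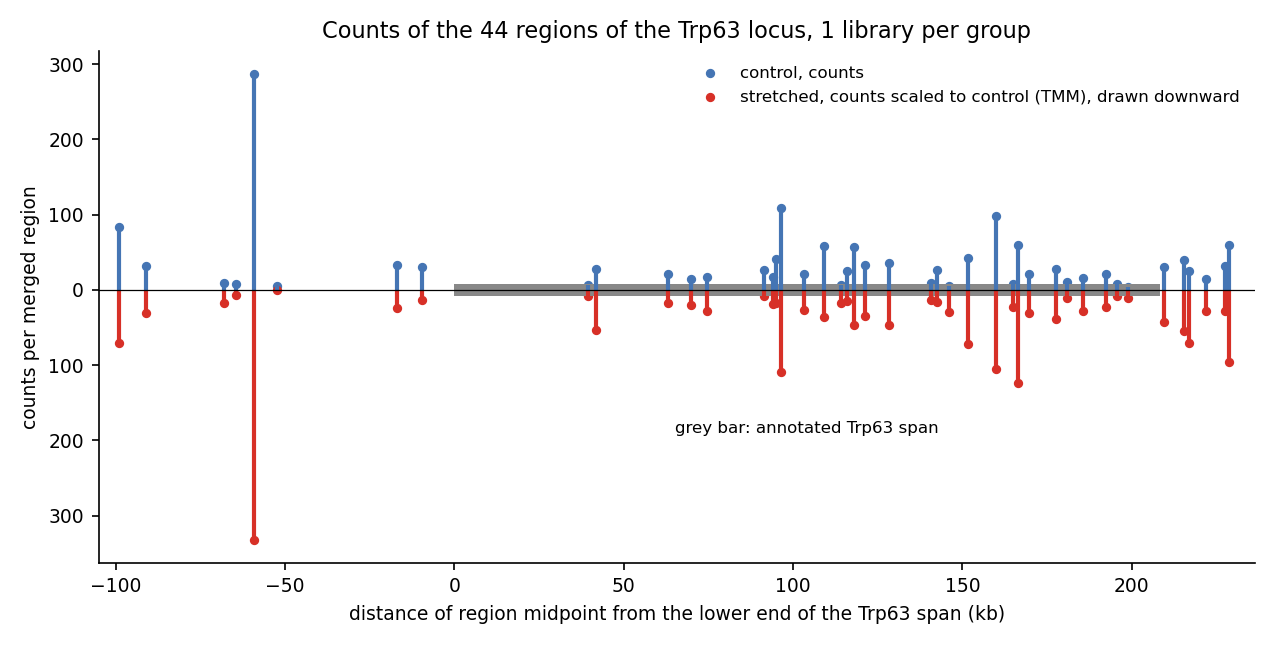
Counts of each of the 44 regions (vertical axis) against the distance in kb of its midpoint from the lower end of the Trp63 span (horizontal axis). Control counts point up and stretched counts, scaled to the control, point down. The tallest line, 59.2 kb before the gene, had 287 control and 314 stretched counts, and no line stands between the region 9.5 kb before the gene and that 39.5 kb inside it.

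The strongest site of the locus lay outside the gene and was not called in either direction. This region, 59.2 kb before the gene (25623848 to 25625254), had counts of 287 in the control and 314 after stretching, 18.2% of all counts of the locus. Its total exceeded that of 98.7% of all regions. The authors' summit pileup there, the number of fragments over the highest point, was 125 fragments in the control and 173 after stretching. Their fold enrichment over the local background of each library was 12.8 and 15.2. The fold of its counts was 1.16 (0.982 to 1.36), an interval that holds 1, and 0.818 with library totals. The outermost region before the gene (25584347 to 25585349, 98.9 kb away) was also strong, with 83 and 67 counts and enrichments of 10.07 and 9.10, and its fold was 0.853 (0.609 to 1.19). Closer to the gene the sites were weak, with 33 and 23 counts at 16.8 kb and 30 and 13 counts at 9.5 kb before it.

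Inside the gene the sites with the most counts lay at 96.4 kb and beyond. The region at 96.4 kb (25779656 to 25780587) had 109 counts in the control and 103 after stretching, and a fold of 0.999 (0.755 to 1.32). Its summit pileup was 54 and 80 fragments, and the enrichment 8.94 and 13.0, so at this site the peak height and the count gave different pictures. The broadest region, at 160.0 kb (25842811 to 25844730), had 98 and 99 counts and a fold of 1.07 (0.799 to 1.43). The region at 118.1 kb (25801527 to 25802173) had 57 and 44 counts, a fold of 0.816 (0.538 to 1.23), pileups of 40 and 38 and enrichments of 6.64 and 7.26. Its summit moved by 9 bp between the libraries. The region at 151.8 kb (25834929 to 25836200) had 42 and 68 counts and a fold of 1.71 (1.15 to 2.58), short of a call. These 4 sites were not called, whereas the region at 166.3 kb, with 177 counts in all, was called higher and is described with the other calls.

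Of the 39 regions of the locus with at least 20 counts, 6 were called higher in the stretched library and 3 lower. Over all 94857 regions with as many counts, 7.22% were called higher and 8.71% lower, so 15.4% of the Trp63 regions were higher and 7.69% lower. The split turned to 2 higher and 6 lower when the library totals set the scale, which called 1.68% of all regions higher and 23.2% lower. With that scaling the median region stands at a log2 fold of -0.50. The median log2 fold of the 39 regions was 0.33 (25 above 0 and 14 below), against -0.0029 for all regions. The summed count of the 44 regions, 1563 and 1748, gave a fold of 1.18 (1.10 to 1.27), but 0.836 (0.780 to 0.895) with library totals. By the same summed measure, the regions of chromosome 16 stood at 1.15 (1.147 to 1.160) and all regions at 1.41. Among 796 genes with at least 20 regions, whose median summed fold was 1.04, that of Trp63 exceeded 70.5%.

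The 6 higher regions all lay beyond the middle of the gene or past it. The region 217.0 kb from the beginning (25900360 to 25901205), 8.7 kb past the end of the gene, had 25 counts in the control and 67 after stretching, and its fold was 2.83 (1.76 to 4.68). Its summit pileup was 15 and 35 fragments, and its enrichment 2.92 and 5.31. Of the higher calls it alone was kept under all 10 other scalings and call limits tried. Some of the 10 could not remove a higher call. A minimum of 10 counts and a fold limit of 1.5 only loosen the rule. DESeq2 factors and scaling to the median region within 1 Mb only raise the folds. The next region beyond it (25905155 to 25906020, 13.5 kb past the end) had 14 and 27 counts and a fold of 2.04 (1.03 to 4.2), and was lost under 5 of the 10.

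Inside the gene, the region at 166.3 kb (25849487 to 25850558) was the one called region with over 100 counts. It had 60 counts in the control and 117 after stretching, with a fold of 2.06 (1.5 to 2.86), pileups of 39 and 62, and enrichments of 4.91 and 5.68. It lay close to the limit of 2 and was lost under 4 of 10 alternatives, with a fold of 1.46 by library totals. A narrow neighbour at 165.0 kb (25848635 to 25848965) had 8 and 21 counts, a fold of 2.77 (1.18 to 7.24), and no listed peak in either library. The region at 146.0 kb (25829509 to 25829987) had 5 counts in the control and 28 after stretching, with a fold of 5.92 (2.26 to 19.6), and a peak in the stretched library with a pileup of 18. The region at 114.2 kb (25797882 to 25798090) had 6 and 17 counts, a fold of 2.99 (1.13 to 9.27), and a stretched peak with a pileup of 17. Except for the region at 166.3 kb, these intragenic calls rest on 33 counts or fewer, and all 3 were lost with a minimum of 50 counts. Those at 114.2 and 165.0 kb were also lost with library totals and with a 99% interval.

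The 3 lower regions all had a peak in the control library alone. At 95.1 kb (25778474 to 25779187) there were 41 counts in the control and 17 after stretching, a fold of 0.438 (0.233 to 0.788). At 91.3 kb (25774834 to 25775219) there were 27 and 8 counts, a fold of 0.313 (0.123 to 0.708), a call lost with a minimum of 50 counts. Both lay just before the strong region at 96.4 kb, whose own count gave a fold of 0.999. The third, 9.5 kb before the gene (25673945 to 25674530), had 30 and 13 counts, a fold of 0.458 (0.219 to 0.905), and was lost with a 99% interval or a minimum of 50 counts.

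**Figure D2:**
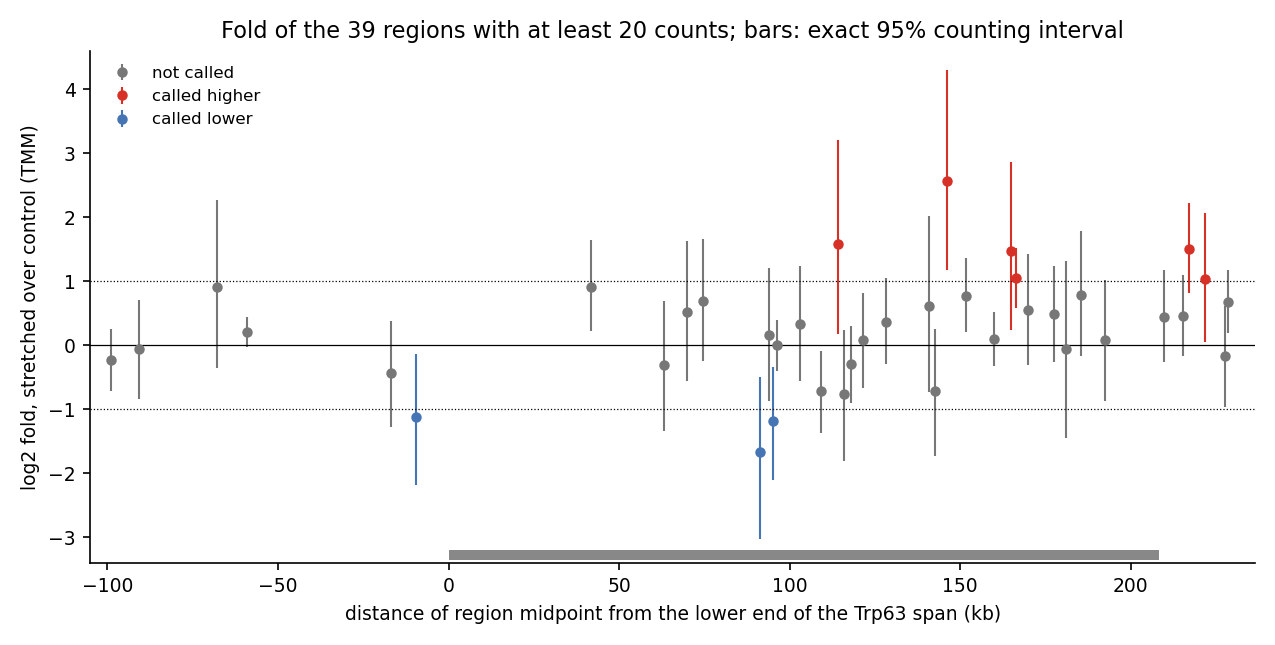
Log2 fold, stretched over control, of the 39 regions with at least 20 counts (vertical axis, bars are exact 95% counting intervals) against distance in kb from the lower end of the Trp63 span (grey bar). The dotted lines mark 2-fold. The 3 lower calls sit at 9.5 kb before the gene and at 91.3 and 95.1 kb, and the 6 higher calls from 114.2 to 221.8 kb.

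Summed by position, the fold was larger toward the end of the gene and beyond it, except that segment 1, with few counts, was also high. The 8 regions before the gene had 487 counts in the control and 468 after stretching, which gave 1.02 (0.893 to 1.16). Most of these counts, 287 and 314, came from the strongest region, whose own fold was 1.16. The median log2 fold of the regions before the gene with at least 20 counts was -0.15. Segment 2 had 267 and 232 counts, a fold of 0.918 (0.767 to 1.10), and segment 3 298 and 310, a fold of 1.10 (0.935 to 1.29). Segment 4 had 275 and 377 counts, a fold of 1.45 (1.24 to 1.70). The 6 regions past the gene had 202 and 304 counts, a fold of 1.59 (1.33 to 1.91). Segment 1, with 2 regions and 34 and 57 counts, stood at 1.77 (1.14 to 2.79). The intervals of segment 4 and of the regions past the gene lay above those of the 8 regions before the gene, but no variation between animals enters them. Among those 6, the region farthest out (25911939 to 25912802, 20.3 kb past the end) had 60 and 91 counts and a fold of 1.6 (1.14 to 2.26).

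Library totals multiply the fold of every part by the same factor, and the fold was then 0.718 before the gene, 1.25, 0.649, 0.777 and 1.02 in segments 1 to 4 and 1.12 past the gene. With the trend of fold with count removed, the median fold of the regions with at least 20 counts was 0.834 before the gene, 2.01 for the 1 such region of segment 1, 1.06, 1.25 and 1.54 in segments 2, 3 and 4, and 1.51 past the gene. The other 158 regions within 1 Mb on either side had a fold of 0.975 (0.945 to 1.006). Of the 136 with at least 20 counts, 4 (2.94%) were called higher and 14 (10.3%) lower, against 7.22% and 8.71% of all regions. The neighbours differed as well. Tprg, a gene named for its regulation by p63 that lies before Trp63, had a fold of 0.918 (0.851 to 0.989) over 32 regions. P3h2, a collagen prolyl hydroxylase gene beyond Trp63, had a fold of 1.08 (1.02 to 1.14) over 35 regions. Each of these 2 genes had 1 region called higher and 1 lower, of 28 Tprg and 31 P3h2 regions with at least 20 counts.

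**Figure D3:**
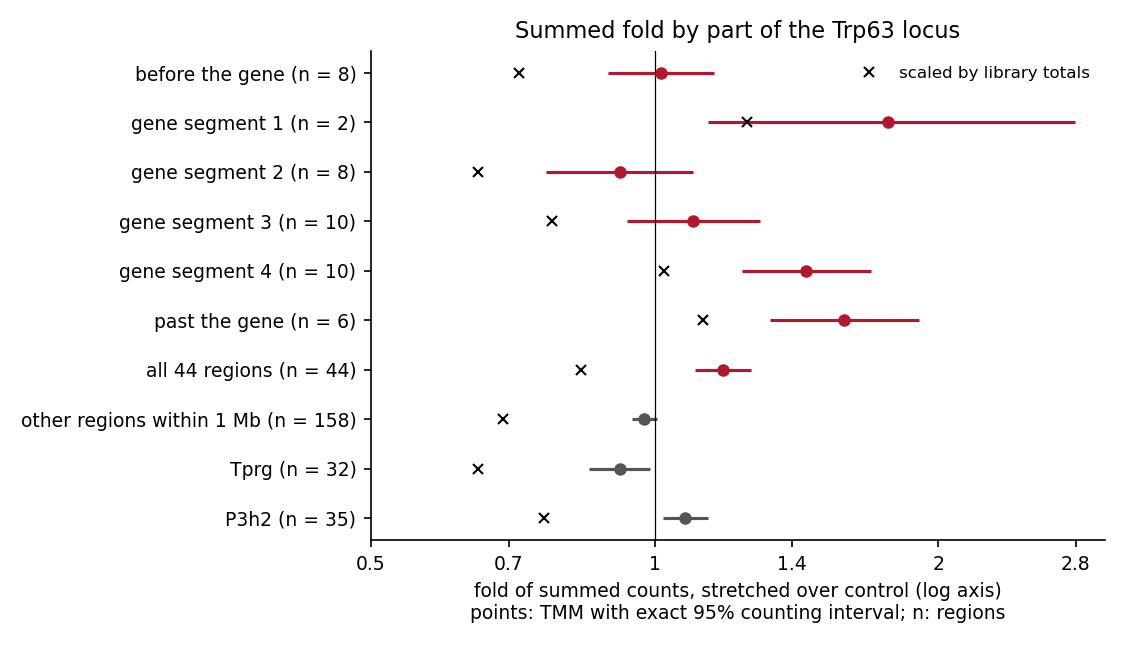
Fold of summed counts (horizontal log axis, exact 95% counting intervals) for the parts of the Trp63 locus, for the other regions within 1 Mb and for the neighbours Tprg and P3h2, with n the number of regions. Crosses give the same fold scaled by library totals. Gene segment 4 (1.45) and the regions past the gene (1.59) lie to the right of the 8 regions before the gene (1.02).

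The peak lists, called by the authors in each library alone, gave a second view of the same reads. A peak lay in 25 of the 44 regions in the control and in 27 after stretching. It was present in both libraries at 19 regions, in the control alone at 6, in the stretched library alone at 8 and in neither at 11. The 6 with a control peak alone had 170 and 88 counts together, and the 8 with a stretched peak alone 126 and 208, but peaks and counts share their reads, so these sums are no independent support. The control-only regions without a call lay at 116.0, 142.5 and 192.5 kb, with 25 and 14, 26 and 15, and 21 and 21 counts. The stretched-only regions without a call lay at 70.0, 74.5, 103.1, 169.8 and 177.5 kb, with folds from 1.26 to 1.62 whose intervals all hold 1. At 103.1 kb (25786417 to 25787250) the counts were 21 and 25, yet the stretched peak had a pileup of 28 and an enrichment of 7.97, and the control had no listed peak.

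Where both libraries had a peak, the summits were close. The median distance between the tallest summits was 48 bp, and 16 of the 19 lay within 100 bp of each other. The authors' enrichment was larger in the stretched library at 12 of these 19 regions, with medians of 4.85 and 5.50. Pileups relative to the median region with peaks in both libraries went the same way as the counts at 15 of 19 regions, 78.9%, close to the 78.7% of all 57097 such regions. The clearest exception was the region at 109.1 kb (25792341 to 25793335). Its counts were 59 and 34, a fold of 0.609 (0.387 to 0.944), while its pileup was 24 and 34 and its enrichment 5.66 and 9.62. The region at 41.8 kb (25725112 to 25725992), the strongest in segment 1, was higher by both measures, with 28 and 50 counts, a fold of 1.89 (1.17 to 3.11), and enrichments of 5.88 and 10.4.

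**Figure D4:**
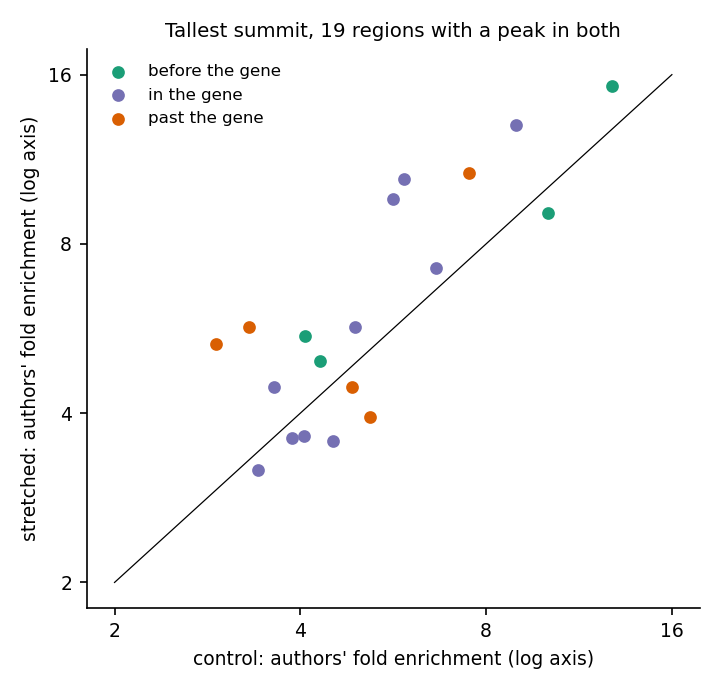
The authors' fold enrichment over local background at the tallest summit of the 19 regions with a peak in both libraries, control on the horizontal and stretched on the vertical log axis, with the line of equal values. Of these, 12 lie above the line, and the point farthest to the upper right is the region 59.2 kb before the gene (12.8 and 15.2).

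The local background itself differed along the gene. It was computed from the authors' values as the pileup plus 1 over the enrichment, and each library has a lowest value, 4.42 fragments for the control and 3.64 for the stretched. Relative to that lowest value, the background was at or near 1 in both libraries over the first 2 segments of the gene, apart from the neighbourhood of 96.4 kb. In segment 4 it had a median of 1.58 over 3 control regions and 2.59 over 4 stretched regions, and at 166.3 kb it stood at 1.85 and 3.05. Past the gene the medians were 1.10 and 1.57. Of the 19 regions with both peaks, 14 had the higher relative background in the stretched library, 5 were equal within 0.5% and 0 were lower. All 5 equal regions stood at the lowest value in both libraries. Where the control stands there, the stretched library cannot be lower. Over all regions with both peaks, 53.5% were higher, 19.1% equal and 27.4% lower. Above its lowest value, this background is an average around the summit that includes the peak itself. A strong peak therefore raises it, as at 59.2 kb before the gene (2.23 and 3.14).

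**Figure D5:**
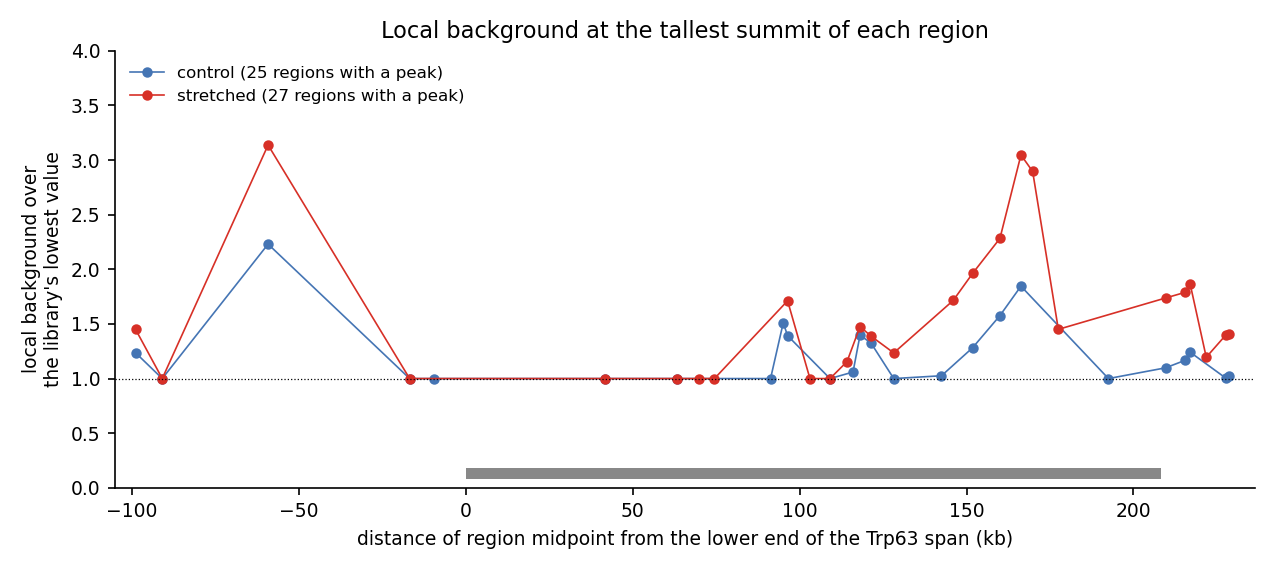
Local background at the tallest summit of each Trp63 region with a peak, divided by the lowest value of the library (vertical axis), against distance in kb from the lower end of the Trp63 span (grey bar). The libraries overlie at 1 in the first part of the gene, and the stretched value is above the control or equal to it at all 19 regions with a peak in both. No value can lie below 1.

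Genes linked to p63, taken as a list of 42 by their roles, showed no common direction. By the same region rule 41 of them had 576 regions, of which 515 had at least 20 counts. In these 30 regions (5.83%) were called higher and 36 (6.99%) lower, against 7.22% and 8.71% of all regions. The median log2 fold was 0.01, and 19 genes had an interval above 1, 12 below it and 10 holding it. Trp53 had no region by the rule.

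Genes for relatives of p63 and for the control of its protein had 7 regions higher and 1 lower of 85, or 8.24% and 1.18%, where all regions had 7.22% and 8.71%. Wwp1, a ubiquitin ligase that acts on p63, had 2 regions higher of 6 with at least 20 counts. Its 8 regions had 330 and 610 counts, a fold of 1.95 (1.71 to 2.24). Fbxw7, a subunit of another ubiquitin ligase, had 3 higher of 30 with at least 20 counts and a fold of 1.19 (1.11 to 1.28). Ripk4, a kinase needed for epidermal differentiation, had 1 higher of 20 with at least 20 counts and a fold of 1.26 (1.16 to 1.36). The 1 lower region belonged to Trp73, the gene of another p53 family member, which had a fold of 0.905 (0.833 to 0.983). With library totals the folds of Fbxw7 and Ripk4 were 0.841 and 0.890, and that of Wwp1 was 1.38.

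Genes for keratins, adhesion and matrix had 7 regions higher (4.90%) and 11 lower (7.69%) of 143. Dst, which encodes a plakin of the hemidesmosome, had 4 higher and 2 lower of 31 with at least 20 counts. Its fold was 1.004 (0.946 to 1.07). Fras1, an extracellular matrix gene of the epidermal basement membrane, had 5 lower of 23 such regions and a fold of 0.906 (0.828 to 0.990). Itga6, the integrin used for sorting, had 1 higher and 2 lower of 23 such regions and a fold of 1.14 (1.07 to 1.22). The keratin genes Krt5 and Krt14 stood at 0.979 (0.889 to 1.08) and 1.20 (1.09 to 1.32), so Krt14, but not Krt5, had an interval above 1. With library totals the Itga6 and Krt14 folds were 0.809 and 0.847.

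Transcription and chromatin genes had 9 regions higher (6.92%) and 10 lower (7.69%) of 130. Tfap2a, an AP-2 factor of surface ectoderm, had 4 higher and 2 lower of 19 with at least 20 counts. Its fold was 1.28 (1.17 to 1.39). Its relative Tfap2c had 2 lower of 19 such regions and a fold of 1.10 (1.02 to 1.18). Gata3 had 2 higher and 1 lower, also of 19, and a fold of 1.12 (1.04 to 1.20). With library totals all 3 of these folds lay below 1, from 0.776 to 0.902.

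Signalling and cell cycle genes had 7 regions higher (4.46%) and 14 lower (8.92%) of 157, the lower share being near the 8.71% of all regions. Of the 14 lower regions, 12 belonged to the receptor genes Fgfr2 and Notch1. Fgfr2, a receptor for keratinocyte growth factors, had 7 regions lower and none higher of 35 with at least 20 counts. Its 37 regions had 2112 and 1442 counts, a fold of 0.721 (0.674 to 0.772). Notch1, which promotes differentiation and restrains p63, had 5 lower of 16 with at least 20 counts and a fold of 0.668 (0.609 to 0.732). Egfr had 3 regions higher of 33 with at least 20 counts and a fold of 1.22 (1.15 to 1.30), which was 0.863 with library totals. The Fgfr2 and Notch1 folds were lower still with library totals, 0.510 and 0.472.

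At the edges of the locus, the outermost region before the gene (83 and 67 counts) had a neighbour just beyond 100 kb with 6 and 7 counts. On the far side, the last region of the locus (60 and 91 counts) was followed at 25934057 by one with 114 and 132 counts, a fold of 1.22 (0.945 to 1.59), which lay nearer to P3h2. Among 186 genes of like region number and count, the 3 nearest to Trp63 in summed log2 fold and share of higher regions were Adgrl2, Itpr1 and Gli3, with folds of 1.21, 1.17 and 1.18. This likeness rests on 2 libraries.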

How the data were processed

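Per the labels, ATAC-seq was done on 1 control and 1 stretched sample, grouped by treatment. Build GRCm38 and the tools Bowtie2 2.2.6, MACS2 2.1.0.20151222, HTSeq, Picard and SAMtools are listed in the submitters' processing notes. Per the file headers, peaks were called on each library alone with a q cutoff of 0.05, and the authors deposited the summit pileup (a signal in fragments), fold enrichment (a ratio), and -log10 p-values and q-values. The deposited counts are raw counts over merged regions. The sources used here do not say how they were made, and at 103.1 kb a count lay below its pileup, so duplicates and read filters may differ from those of the peaks.

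Starts of merged regions were taken as 0-based and converted to 1-based. Scaling used TMM in edgeR 4.0.16 (R 4.3.3), with DESeq2 1.42.0 as an alternative. Clopper-Pearson intervals, calls, a count of 3 in place of 0, and other steps used Python 3.11.15, scipy 1.17.1, statsmodels 0.14.6 and pandas 2.3.3. The calls were tested on simulated counts that held counting error only. Changes were placed there only in regions with more counts than most called Trp63 regions have. Gene spans came from RefSeq for GRCm38.p6. No promoter sequence of Trp63 was in the tables used. Regions named are those called, with at least 100 counts, with a peak in 1 library, or among the 5 tallest of a library. Those at 16.8, 41.8 and 109.1 kb and just outside the locus were named after their values were seen. So were Krt5, Krt14, Trp73 and the single suprabasal, follicle and immune genes. Named genes are the 3 of each role with the most called regions. The members and lists were chosen with earlier results of these data known.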

Additional observations from a re-analysis of the deposited data

How the results depend on the processing

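With 1 library per group, depth and counting error are the only error measured here, most regions of the locus hold under 100 counts, and intervals cannot cover differences between animals. Scaling by library totals, which include regions over 10000 counts, reversed the summed Trp63 fold to 0.836 and gave 2 Trp63 regions higher and 6 lower. Of the 515 regions of p63-linked genes with at least 20 counts, it gave 9 higher and 112 lower. With that scaling 1.68% of all regions were higher and 23.2% lower. Totals without regions over 10000 counts gave a summed fold of 1.07 (1.0006 to 1.15). TMM factors from regions with at least 100 counts also gave 1.07 (0.998 to 1.15), an interval that holds 1. The median region stood at log2 -0.14 and -0.15 under these 2 scalings. Each gave 4 Trp63 regions higher and 3 lower. Of all regions, 4.92% and 4.87% were then higher, and 11.8% and 11.9% lower. Relative to the median region within 1 Mb (log2 fold -0.10), a setting chosen after seeing the data, the summed fold was 1.27. A minimum of 50 counts left 2 higher and 1 lower Trp63 regions, and 15 and 23 for the p63-linked genes. How many regions of these sets had 50 counts is not given here. Of all regions with as many counts, 6.33% were higher and 6.05% lower. A 99% interval left 3 Trp63 regions higher, and 5.54% of all regions. The gene span alone gave 13 higher and 13 lower for the p63-linked genes. The number of regions tested there and the share of all regions are not given, so these counts stand without a comparison. Inside the gene span alone, 10 Trp63 regions had a peak in both libraries, and a -log10 q of at least 10 gave 8 in the whole locus. A fold limit of 1.5 gave 69 higher and 60 lower of the 515 regions of p63-linked genes with at least 20 counts. At that limit 14.6% of all regions were higher and 13.7% lower. Of the other settings, 10 left the higher count and 11 the lower count of Trp63 regions within 1.5 times. The planned fold at the 5′ end of Trp63 has no value, since no region lies within 1 kb of it. No paired analysis was possible because each group has 1 library.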
